A study of Mus musculus with 22 samples.

Results

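The response of wild-type (wt) macrophages to lipopolysaccharide (LPS), the endotoxin of Gram-negative bacteria, was described across all genes on 7 of the 22 arrays of the series. Bone marrow-derived macrophages (BMDM) are macrophages grown in culture from bone marrow. Here they came from male C57BL/6 mice of 12 or 13 weeks and were differentiated with 10 ng/ml of the growth factor M-CSF for 9 days. The members were all arrays whose titles name wt BMDM after 360 min, 3 of them with 100 ng/ml LPS and 4 with medium alone. The other 15 arrays hold BMDM lacking the protein kinase MK2 (8 arrays) or both MK2 and MK3 (7 arrays), also with LPS or medium for 360 min. Their mice were 10 to 13 weeks old for MK2 and 11 to 14 weeks old for MK2 and MK3. The study's methods describe the experiments as independent of each other, while the labels number the arrays of a group as replicates and tie none to an animal. The p-values measure the spread between arrays within a group, pooled over the groups of all 22 arrays.

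LPS is bound by CD14 and MD-2 and passed to the receptor TLR4 on the macrophage. TLR4 signals through the adaptor MyD88, which leads to NF-κB and MAP kinases, and through the adaptor TRIF, which leads to the factor IRF3 and to interferon β. Interferon β then acts back on the cells and switches on antiviral genes, so that a culture after several hours holds both direct and secondary responses. Macrophages activated in this way are known to secrete cytokines and chemokines, to make nitric oxide and itaconate, and to stop dividing.

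Levels are the log2 of the quantile-normalised signal of 1 probe per gene, and differences are LPS minus medium on that scale. Each difference is given ± its standard error (SE) from limma, and a gene was called when its Benjamini-Hochberg adjusted p was below 0.05 over the 22330 genes tested. Rose and fell are used only of called genes. Levels of different genes cannot be compared, since each probe has its own brightness. The share of probes well above background ran from 61.7% to 76.4% on the 7 arrays, and the median SD between arrays over genes was 0.33 with LPS and 0.29 in medium. Of 13 macrophage markers tested, 12 were well above background on all 7 arrays, the integrin Itgam on all but 1, and their summed level lay between 19.53 and 19.76 with LPS and between 20.06 and 20.42 in medium. Among markers of other cells, S100a8 and Camp of neutrophils, Lum of fibroblasts, Zbtb46 and Ccr7 of dendritic cells, Kit of mast cells, Mmp9 of osteoclasts, Cd79a of B cells and Cd3e, Lck and Gzma of T and NK cells were called higher, while Cd79b and Vpreb1 of B cells, Siglech of dendritic cells and Dcstamp of osteoclasts were called lower. Ncr1 of NK cells, Xcr1 of dendritic cells and Gp9 of megakaryocytes were below background on all 7 arrays. Of the macrophage markers themselves, 3 were called higher and 5 lower. The summed level of the 8 T and NK cell markers lay between 12.84 and 12.99 with LPS and between 11.99 and 12.30 in medium, that of the 9 neutrophil markers between 12.87 and 13.63 and between 11.83 and 13.14, and that of the 8 fibroblast markers between 14.32 and 16.92 and between 12.58 and 17.62. The summed level of the 7 B cell markers was lower, between 8.48 and 9.32 with LPS and between 9.74 and 10.32 in medium. For dendritic cell, mast cell, erythroid and osteoclast markers, the ranges with LPS and in medium overlapped. The part of other cells in the results was not tested, and fewer cells of a type cannot be told apart from less RNA per cell.

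One of the medium arrays, replicate 4, was singled out beforehand because LPS-inducible genes were raised on it. Genes that were at least 4-fold higher after LPS were raised on medium replicate 4 relative to the other 3 medium arrays, by a median of 13.6% of the LPS change (quartiles 4.16% and 24.3%, 1052 genes). The same share was -3.17%, -2.02% and -3.89% for medium replicates 1, 2 and 3. Of the 1052 genes, 82.1% lay towards LPS on replicate 4. Genes that were at least 4-fold lower showed no like shift, with a median of 1.37% on replicate 4. The shift was uneven across gene groups. It was 39.2% among the 3 rising genes of prostaglandin and histamine synthesis (-8.33% to 44.0%) and 32.6% among 5 chemoattractant receptors. Among 10 CC chemokines it was 28.8%, and among 17 guanylate-binding proteins and immunity-related GTPases 24.1%. Against these stood 8.88% among 36 antiviral genes and 0.51% among 4 Toll-like receptor genes. For 15 rising olfactory receptor genes, which macrophages are not known to use, it was 21.8% (-37.9% to 105%). The overall counts, and the difference of each named gene that moved by more than 1 on the log2 scale, are therefore also given without it, and the cause of the shift was not tested.

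**Figure D1:**
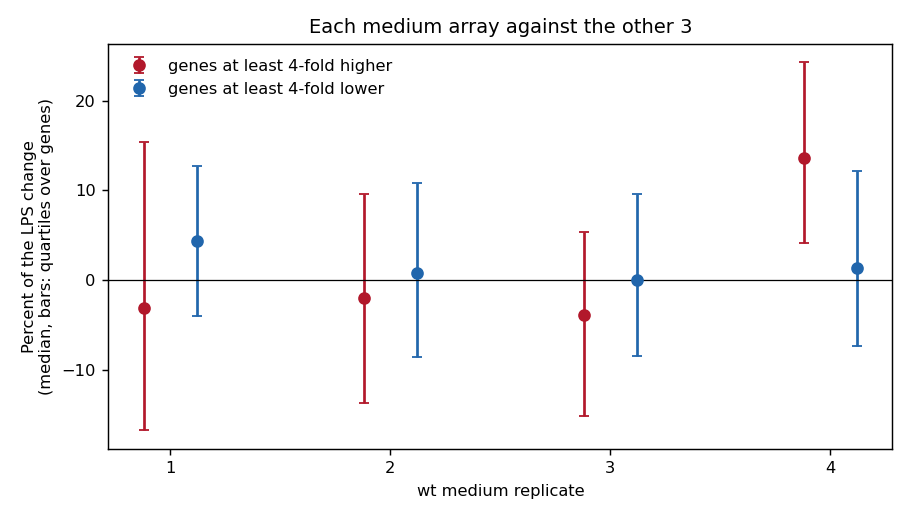
Position of each wt medium array between medium and LPS. Points are the median over genes of the array's level minus the mean of the other 3 medium arrays, in percent of the LPS change against those 3, for genes called and at least 4-fold higher (red) or lower (blue), and bars run from the lower to the upper quartile. For rising genes, replicate 4 lay at 13.6%, whereas the other 3 arrays lay between -3.89% and -2.02%.

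After 360 min of LPS, 9427 of 22330 genes (42.2%) were called, 4166 higher (18.7%) and 5261 lower (23.6%). At least 4-fold changes were seen in 1011 genes that rose (4.53%) and 1310 that fell (5.87%). Without medium replicate 4, 8757 genes (39.2%) were called, 3840 higher (17.2%) and 4917 lower (22%), and 1053 (4.72%) and 1338 (5.99%) changed by at least 4-fold. The LPS and medium arrays did not overlap in 10874 of 22261 genes measured on all 7 arrays (48.8%). The split into higher and lower genes depended on the scaling of the arrays. When each array was scaled to its 75th percentile instead, the median change of all genes moved from -0.04 to 0.30, and 6370 genes were called higher and 4163 lower, so that 60.5% of the calls were higher instead of 44.2%. The fall of a gene group is therefore in most cases set below beside its counts or its median under 75th percentile scaling. Some lists in which risers outnumbered fallers are given under quantile normalisation only. The genes were arranged in 48 lists by function, with 1564 tested entries, 462 higher and 549 lower. Without medium replicate 4, 447 entries were higher and 515 lower, the median of a list moved by between -0.19 and 0.28, and no list median changed sign. No list gained or lost more than 1 riser or 5 fallers. The counts of each list below stand against 18.7% of all genes called higher and 23.6% called lower. As a reference for dim probes, 673 olfactory receptor genes, which macrophages are not known to use, had a median change of 0.39, with 135 called higher and 7 lower.

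The 20 genes with the largest rises ran from 6.87 ± 0.50 for Cmpk2 to 8.12 ± 0.84 for Il1a. Besides cytokines and chemokines they held Slfn4 of the schlafen family (7.19 ± 0.76), the adhesion and signalling receptor Slamf1 (7.08 ± 0.98), the activation marker Cd69 (6.95 ± 0.51) and Shisa3 (7.40 ± 0.90). Slfn4, Slamf1 and Shisa3 were each well above background on all LPS arrays and on 1 of 4 medium arrays. Without medium replicate 4 the differences of Slfn4, Slamf1 and Shisa3 were 8.28, 8.37 and 8.58. The 20 largest falls ran from -5.25 ± 0.61 for Rassf3 to -7.12 ± 0.31 for Sesn1, a stress-induced inhibitor of mTORC1. Rtn4rl1, a relative of the Nogo receptor, was at 4.90, 2.03 and 2.01 after LPS and 9.35, 10.65, 9.59 and 9.79 in medium, and Kcnj10, a potassium channel, was lower by 6.02 ± 0.68, both with 1 of 3 LPS arrays above background. Myadml2, below background on all LPS arrays, was at least 34.5-fold lower. Cerk, the ceramide kinase, and Dna2, a helicase and nuclease of replication, fell by 5.37 ± 0.33 and 5.37 ± 0.50.

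Cytokines were well represented among these risers. Of 29 inflammatory cytokine genes tested, 21 rose and 1 fell, against 18.7% and 23.6% of all genes, with a median change of 3.60 against -0.04 for all genes (3.88 without medium replicate 4). Tnf, which encodes the cytokine TNF, was at 15.47, 16.36 and 17.57 after LPS and 9.64, 10.46, 9.55 and 10.60 in medium. The difference was 6.40 ± 0.47 (adjusted p = 4.89e-09), and the lowest LPS array lay far above the highest medium array. Il1a, which encodes interleukin-1α, was at 15.08, 14.24 and 14.52 after LPS and 5.90, 4.33, 6.15 and 9.59 in medium, with a difference of 8.12 ± 0.84 that grew to 9.15 without medium replicate 4, the highest of the 4. Il1b, which encodes the inflammasome-processed interleukin-1β, rose by 6.75 ± 0.75 (7.78 without that array), and its partner in inflammasome processing, Il18, by 3.33 ± 0.31. Csf3, which encodes the granulocyte growth factor G-CSF, was at 10.53, 10.33 and 9.19 after LPS and 2.75, 2.01, 2.04 and 5.25 in medium and was well above background on 1 medium array. The only member called lower was Il16, a chemoattractant for CD4+ cells, which fell by 1.98 ± 0.26. Il12b had no probe that passed the filter.

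A list of anti-inflammatory cytokines, decoy receptors and other cytokine receptors held more risers than fallers. Some of its members, such as Ifngr1, are signalling receptors. Among the 20 genes, 9 rose and 3 fell, with a median of 0.67. The share of fallers was 15.0%, against 23.6% of all genes. Il10, which encodes the deactivating cytokine interleukin-10, was at 13.51, 14.28 and 14.49 after LPS and 7.05, 7.15, 7.68 and 8.40 in medium, a difference of 6.52 ± 0.48 (adjusted p = 4.54e-09) with no overlap between the groups. The interleukin-1 receptor antagonist Il1rn rose by 6.57 ± 0.57, Il19 of the IL-10 family by 6.50 ± 0.71 and the decoy Il18bp by 3.34 ± 0.39. The members that fell were all receptors or growth factors. Ifngr1, a chain of the interferon γ receptor, fell by 1.91 ± 0.22, the inhibitory receptor Sigirr by 1.35 ± 0.39 and Tgfb3 by 1.74 ± 0.60, a call lost when LPS replicate 2 or 3 or medium replicate 1 was left out. Tgfb1 was not called, with -0.21 ± 0.20.

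Chemokines were mostly higher in the CC class. Of 17 CC and CX3C chemokines, 12 rose and 1 fell (median 3.33), and of 13 CXC chemokines 6 rose and 1 fell (median 1.17). The neutrophil attractant Cxcl1 was at 14.29, 13.79 and 14.17 after LPS and 6.92, 6.50, 5.91 and 7.76 in medium. Cxcl10, an interferon-inducible attractant of T cells, was at 18.05, 18.35 and 18.33 after LPS and 11.31, 11.74, 12.78 and 15.03 in medium, so that medium replicate 4 had reached 15.03 while the other 3 arrays lay at or below 12.78. The difference of Cxcl10 was 5.53 ± 0.66, and 6.30 without that array. Cxcl9, another ligand of the same receptor, rose by 7.18 ± 0.86 (8.30 without medium replicate 4), and Ccl12, a monocyte attractant, by 7.44 ± 0.58. Ccl3 and Ccl4, which attract monocytes and T cells, rose by 5.12 ± 0.48 and 5.16 ± 0.52. Ccl5 rose by 2.61 ± 0.56, with medium levels of 16.36 to 17.19 on 3 of the 4 arrays and 13.63 on replicate 1. Pf4, a platelet chemokine that macrophages also make, was not called (-0.16 ± 0.26). Cxcl14, the CXC member called lower, fell by 1.46 ± 0.48 and lost its call without medium replicate 4 (adjusted p = 0.0514).

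The receptors for these signals moved both ways, with 7 of 19 genes higher and 5 lower (7 and 5 under 75th percentile scaling). The share of fallers was 26.3%, against 23.6% of all genes. The formyl peptide receptors Fpr1 and Fpr2, which sense bacterial peptides, rose by 5.85 ± 0.67 and 6.68 ± 0.63, and the atypical receptor Ccrl2 by 4.79 ± 0.25. Cx3cr1, the fractalkine receptor of resident macrophages, was at 11.11, 11.79 and 11.69 after LPS and 15.53, 16.71, 16.43 and 15.84 in medium, a fall by 4.60 ± 0.34 (adjusted p = 5.46e-09). Ccr2, the receptor through which monocytes leave the marrow, fell by 2.78 ± 0.68, and the complement receptor C5ar2 by 3.60 ± 0.33.

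**Figure D2:**
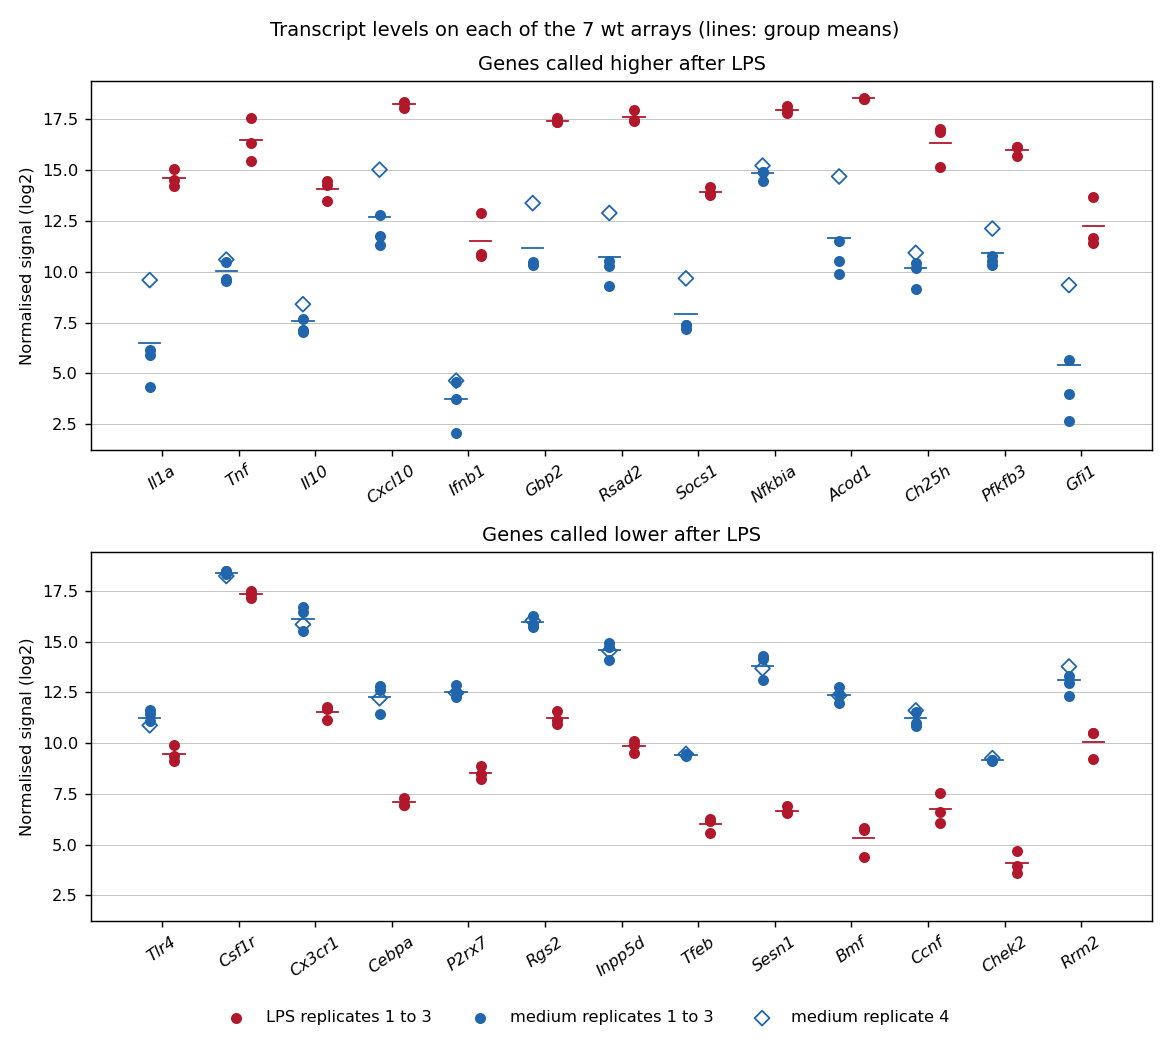
Normalised signal (log2) of 26 genes on each of the 7 wt arrays. Red points are the LPS arrays, blue points medium replicates 1 to 3, open diamonds medium replicate 4 and lines the group means. For Il1a, Cxcl10, Gbp2, Acod1 and Gfi1, replicate 4 lay between the other medium arrays and LPS (9.59 for Il1a), whereas for Cebpa, Rgs2 and Tfeb it lay among the other medium arrays.

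The LPS receptor itself fell. Tlr4 was at 9.13, 9.37 and 9.92 after LPS and 11.45, 11.64, 11.07 and 10.87 in medium, a fall by 1.78 ± 0.27 (adjusted p = 2.43e-05), and all LPS arrays lay below all medium arrays. Its co-receptor Cd14 rose by 1.56 ± 0.28, while Ly96, which encodes MD-2, was not called (0.41 ± 0.31). Among the 25 genes of Toll-like receptors, co-receptors and adaptors, 10 rose and 4 fell. The adaptor Myd88 was at 14.91, 15.07 and 15.08 after LPS and 12.55, 12.74, 12.55 and 12.65 in medium, a difference of 2.40 ± 0.15. Tlr3, the receptor for double-stranded RNA, rose by 3.95 ± 0.35, Tlr1 by 2.65 ± 0.38 and Tlr2 by 1.16 ± 0.23. Tlr13, which senses bacterial ribosomal RNA, fell from medium levels of 15.22 to 15.89 to LPS levels of 11.21 to 11.61 (-4.06 ± 0.26), and the kinase Irak4, which acts directly below MyD88, fell by 1.47 ± 0.29.

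Cytosolic sensors rose in 17 of 23 genes and fell in 3, with a median of 2.19. The RNA sensors Ifih1 and Ddx58 rose by 4.56 ± 0.27 and 3.80 ± 0.24, the Z-nucleic acid sensor Zbp1 by 4.66 ± 0.45, and the peptidoglycan sensor Nod1 by 4.45 ± 0.23. Casp4, which encodes the caspase that binds cytosolic LPS, was at 16.40, 16.45 and 16.23 after LPS and 11.52, 12.13, 11.75 and 12.57 in medium, and the inflammasome sensor Nlrp3 at 10.02, 10.92 and 11.02 after LPS and 7.27, 7.54, 7.36 and 7.54 in medium. The differences were 4.37 ± 0.26 and 3.23 ± 0.21. Mavs, the mitochondrial adaptor of the RNA sensors, fell by 2.10 ± 0.28, and Nlrp1b, the sensor of anthrax toxin, by 2.91 ± 0.39.

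NF-κB genes rose with their own inhibitors. Of 17 genes for NF-κB subunits, IκB proteins and their kinases, 14 rose and 1 fell (median 2.59). Nfkbia, which encodes IκBα, was at 17.81, 17.99 and 18.14 after LPS and 14.46, 14.94, 14.91 and 15.23 in medium, and the nuclear IκB protein Nfkbiz rose by 4.34 ± 0.29. The precursor subunit Nfkb2 rose by 3.46 ± 0.22, whereas Rela, which encodes the main activating subunit, was not called (0.39 ± 0.17). The member that fell was Map3k14, the kinase of the non-canonical pathway, by 2.56 ± 0.48.

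Of 30 feedback inhibitors, 18 rose and 4 fell (median 2.26). Socs1, which blocks cytokine receptor kinases, was at 14.19, 13.79 and 13.87 after LPS and 7.38, 7.38, 7.18 and 9.68 in medium. The difference was 6.05 ± 0.48, and 6.64 without medium replicate 4. Socs3, Tnfaip3 and Usp18, which restrain interleukin-6, NF-κB and interferon signalling, rose by 6.69 ± 0.54, 5.87 ± 0.35 and 6.35 ± 0.53. The phosphatases Dusp1 and Dusp2, which switch off MAP kinases, rose by 3.72 ± 0.31 and 6.54 ± 0.58. The RNA-destabilising protein Zfp36, known as tristetraprolin, rose by 3.25 ± 0.35, while its relatives Zfp36l1 and Zfp36l2 fell by 2.59 ± 0.29 and 3.59 ± 0.24. Atf3 was not called (0.04 ± 0.31).

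Transcription factors of the AP-1, EGR, NR4A, C/EBP and STAT groups rose in 19 of 35 cases and fell in 7. Under 75th percentile scaling, 20 rose and 4 fell. Batf, an AP-1 member, was at 13.98, 14.16 and 14.04 after LPS and 7.90, 8.09, 7.86 and 9.88 in medium, and the related Batf2 rose by 4.87 ± 0.31. Junb and Stat3 rose by 2.65 ± 0.25 and 2.76 ± 0.23. Fos, the classical immediate-early gene, fell by 2.11 ± 0.32, and Myc was not called (1.12 ± 0.48). The C/EBP family split. Cebpb and Cebpd, the inflammatory members, rose by 2.18 ± 0.26 and 2.87 ± 0.33. Cebpa, the member that drives myeloid differentiation, was at 6.96, 6.98 and 7.31 after LPS and 11.42, 12.63, 12.80 and 12.21 in medium, a fall by 5.18 ± 0.33 (adjusted p = 1.03e-09).

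Antiviral genes had the highest share of risers among the 48 lists. Ifnb1, which encodes interferon β, was at 10.79, 10.89 and 12.89 after LPS and 3.73, 4.59, 2.04 and 4.64 in medium, with 2 of 4 medium arrays above background and a difference of 7.77 ± 0.74. Of 44 antiviral interferon-stimulated genes tested, 43 rose and none fell, with a median of 3.16 and 3.22 without medium replicate 4. Rsad2, which encodes the antiviral enzyme viperin, was at 17.43, 17.46 and 17.95 after LPS and 9.31, 10.27, 10.53 and 12.89 in medium. Its neighbour Cmpk2 rose by 6.87 ± 0.50, Ifit1 by 5.83 ± 0.53 and the ubiquitin-like Isg15 by 4.73 ± 0.47. Mx1, Mx2 and 4 other genes of this list had no probe that passed the filter.

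Of 19 guanylate-binding proteins and immunity-related GTPases, which attack vacuoles with microbes, 18 rose and none fell. Their median of 4.28 was the highest of the 48 lists, 4.50 without medium replicate 4. Gbp2 was at 17.59, 17.38 and 17.36 after LPS and 10.40, 10.32, 10.51 and 13.38 in medium, so that replicate 4 stood above the other medium arrays, which lay close together. Gbp5 and Gbp6 rose by 6.66 ± 0.60 and 6.44 ± 0.55, and the immunity-related GTPases Igtp and Irgm1 by 4.48 ± 0.26 and 3.33 ± 0.27. These genes share sequence within the family, so that a probe may read more than 1 of them.

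The 9 interferon regulatory factors moved less, with 6 higher and 1 lower (5 and 1 without medium replicate 4). Irf7, the factor that amplifies interferon production, rose by 3.50 ± 0.42, Irf1 by 1.89 ± 0.25, Irf8 by 1.54 ± 0.39 and Irf2 by 1.29 ± 0.31. Irf9, a part of the interferon-activated complex, was 0.52 ± 0.18 higher and lost its call without replicate 4 (adjusted p = 0.0621). Irf3, which acts below TLR4 and its adaptor TRIF, fell by 1.08 ± 0.24. Irf4 (1.11 ± 0.65) and Irf5 (-0.30 ± 0.28) were not called.

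The interferon-stimulated response element is a promoter motif read by these factors. RefSeq promoters of GRCm38.p6, from 250 bases before to 50 after a transcript start, were matched to 14538 of the genes tested. The promoters of Cxcl9 (chr5:92328030-92328329, minus strand), Rsad2 (chr12:26456403-26456702, minus strand) and Gbp5 (chr3:142496684-142496983, plus strand) are shown as examples of strongly rising genes that hold the motif. Capitals mark GAAANNGAA or its reverse complement.
Cxcl9: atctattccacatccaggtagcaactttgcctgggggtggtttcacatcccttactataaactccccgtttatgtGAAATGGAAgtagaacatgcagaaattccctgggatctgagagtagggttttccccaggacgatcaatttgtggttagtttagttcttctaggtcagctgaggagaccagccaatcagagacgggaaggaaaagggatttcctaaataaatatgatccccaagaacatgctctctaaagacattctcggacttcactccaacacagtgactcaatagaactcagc
Rsad2: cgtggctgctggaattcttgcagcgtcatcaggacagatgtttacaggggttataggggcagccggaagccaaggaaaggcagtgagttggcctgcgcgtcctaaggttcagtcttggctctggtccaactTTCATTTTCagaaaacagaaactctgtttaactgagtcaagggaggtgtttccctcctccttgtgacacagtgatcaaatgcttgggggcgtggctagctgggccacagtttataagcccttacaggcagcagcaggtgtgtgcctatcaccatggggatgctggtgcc
Gbp5: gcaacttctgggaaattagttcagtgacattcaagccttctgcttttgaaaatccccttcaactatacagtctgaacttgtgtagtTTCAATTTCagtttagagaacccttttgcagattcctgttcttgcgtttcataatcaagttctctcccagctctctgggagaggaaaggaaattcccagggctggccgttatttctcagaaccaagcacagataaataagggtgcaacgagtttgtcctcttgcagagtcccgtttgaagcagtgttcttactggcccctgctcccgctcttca
The motif was found on either strand in 15.0% of 900 promoters of genes at least 4-fold higher, in 4.93% of 1157 promoters of genes at least 4-fold lower, in 7.64% of 9741 promoters of genes not called and in 7.71% of all 17955 promoters of tested genes. Among the guanylate-binding list it was in 90.9% of 11 promoters and among the antiviral list in 48.8% of 41. The promoters of olfactory receptor genes, a reference that macrophages are not known to use, held it in 15.2% of 579 cases, close to the share of the genes at least 4-fold higher. A match is a string of letters and not a bound site.

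Other motifs were also counted in these promoters. The κB motif was in 8.44% of the promoters of strongly rising genes and in 5.03% of all, and in 8 of 20 promoters of the NF-κB list. The AP-1 site TGANTCA was in 11.2% of rising and 5.45% of falling promoters (6.57% of all). The C/EBP site TTGCNNAA was in 13.1% of rising and 9.51% of falling promoters, and in 64.0% of 25 promoters of acute-phase and complement genes. Olfactory receptor promoters held the AP-1 site in 13.3% and the C/EBP site in 16.8%, both above the rising genes, and the κB motif in 1.55%. The classes also differed in base composition, with a median GC content of 55.0% in rising, 60.3% in falling and 57.0% in uncalled promoters, and the part of base composition in these shares was not tested. Matches of different motifs could overlap.

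**Figure D3:**
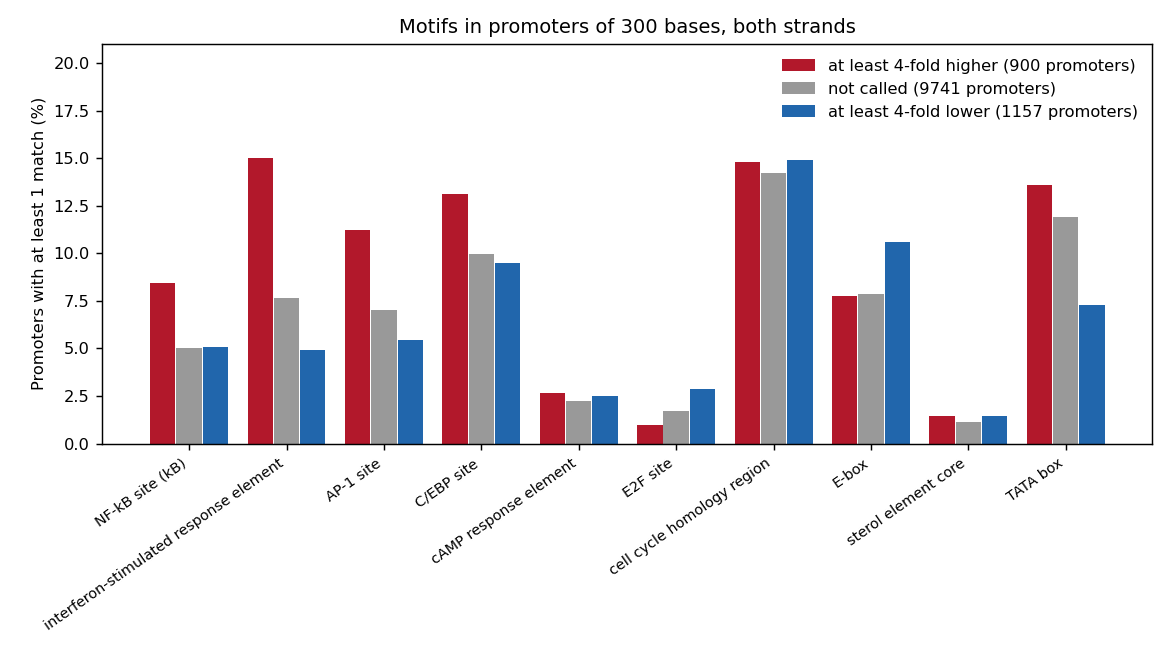
Share of RefSeq promoters of 300 bases with at least 1 match of each motif on either strand, for genes called and at least 4-fold higher (red, 900 promoters), not called (grey) or called and at least 4-fold lower (blue, 1157 promoters). The interferon-stimulated response element was in 15.0% of the red and 4.93% of the blue promoters (15.2% of olfactory receptor promoters, which are not drawn), and the E2F site in 1.00% and 2.85%.

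Antigen presentation differed by class in its share of risers. Of 21 genes of the MHC class I pathway, which shows peptides made in the cell, 13 rose and none fell (median 1.12). Nlrc5, the activator of class I genes, was at 14.40, 14.54 and 14.44 after LPS and 9.80, 10.18, 10.07 and 10.54 in medium. The peptide transporter Tap1 and the immunoproteasome subunit Psmb10 rose by 3.56 ± 0.20 and 1.90 ± 0.16. H2-K1 and B2m, which encode the class I molecule itself, were not called (0.24 ± 0.17 and 0.24 ± 0.18). Class II presentation, which shows peptides taken up by the cell, had 1 of 16 genes higher and 5 lower (median -0.83), and 1 higher and none lower under 75th percentile scaling. Its share of fallers was 31.2%, against 23.6% of all genes. Its activator Ciita was at 6.83, 6.75 and 7.45 after LPS and 7.39, 8.48, 6.55 and 6.15 in medium, and H2-Ab1, a class II chain, at 15.63, 13.57 and 14.09 after LPS and 15.88, 17.72, 13.47 and 14.60 in medium. Both groups overlapped, and the class II chains varied widely between the medium arrays. The thiol reductase Ifi30 fell by 1.31 ± 0.33, the protease Lgmn by 1.18 ± 0.26, and H2-DMb2, below background on all LPS arrays, was at least 2.30-fold lower, although its call was lost without LPS replicate 1 or medium replicate 3.

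Of 24 co-stimulatory and checkpoint ligands, 18 rose and 2 fell (median 2.96). Cd40, the receptor for T-cell help, was at 16.50, 17.17 and 17.16 after LPS and 8.49, 9.01, 9.69 and 12.40 in medium, a difference of 7.04 ± 0.56 that was 7.88 without medium replicate 4. Cd274, which encodes the checkpoint ligand PD-L1, rose by 6.02 ± 0.49, the adhesion molecule Icam1 by 4.53 ± 0.26 and Cd86 by 2.75 ± 0.35. The checkpoint molecule Vsir, known as VISTA, fell by 2.98 ± 0.30. Cd80 was -3.65 ± 0.27 on the probe used and 1.84 on its other probe, so that its direction depended on the probe.

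Enzymes that make small effector molecules rose strongly. Among 16 genes of nitric oxide, arginine and itaconate metabolism, 11 rose and 2 fell (11 and 1 under 75th percentile scaling). Nos2, the inducible nitric oxide synthase, was at 15.44, 16.58 and 15.80 after LPS and 8.63, 8.46, 9.42 and 11.67 in medium. Acod1, which makes itaconate, was at 18.53, 18.53 and 18.57 after LPS and 10.55, 9.90, 11.54 and 14.69 in medium, close to the same value on all 3 LPS arrays. Its difference was 6.87 ± 0.79, and 7.88 without medium replicate 4. Gch1, which makes the cofactor of Nos2, rose by 4.88 ± 0.22, the arginine transporter Slc7a2 by 4.77 ± 0.47 and Ass1, which recycles citrulline to arginine, by 3.12 ± 0.45. Arg2 rose by 2.43 ± 0.62, whereas Arg1 was near background and not called (0.21 ± 0.63). In prostaglandin, leukotriene and histamine synthesis, 6 of 21 genes rose and 6 fell (7 and 5 under 75th percentile scaling). Risers and fallers each made up 28.6%, against 18.7% and 23.6% of all genes. Ptgs2, the inducible cyclooxygenase, was at 17.03, 16.86 and 17.08 after LPS and 10.65, 7.20, 9.40 and 12.19 in medium, and the phospholipase Pla2g4a, which frees its substrate, rose by 3.46 ± 0.26. Thromboxane synthase Tbxas1 fell by 1.65 ± 0.32 and the lysosomal phospholipase Pla2g15 by 3.54 ± 0.35.

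Acute-phase, complement and coagulation genes rose in 19 of 33 cases and fell in 2. Saa3, a serum amyloid, was at 18.63, 18.23 and 17.43 after LPS and 9.31, 10.16, 12.05 and 15.32 in medium, a difference of 6.39 ± 0.95 that was 7.59 without medium replicate 4, and medium replicate 4 lay closer to LPS than to medium replicate 1. The siderophore-binding Lcn2 rose by 6.48 ± 0.58 and the complement genes Cfb and C3 by 5.55 ± 0.64 and 2.98 ± 0.45. In iron, copper and zinc handling 7 of 21 genes rose and 6 fell (9 and 3 under 75th percentile scaling). These shares were 33.3% and 28.6%, against 18.7% and 23.6% of all genes. Hamp, which encodes hepcidin, rose by 6.20 ± 0.70, and Steap4, a metalloreductase below background on all medium arrays, was at least 19.99-fold higher. The zinc and iron importer Slc39a14 rose by 3.72 ± 0.30. Slc40a1, the only known iron exporter and the target of hepcidin, was at 8.54, 6.53 and 6.74 after LPS and 10.58, 11.85, 10.69 and 10.55 in medium, a fall by 3.65 ± 0.61.

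Redox genes did not move as 1 group. Of 25 NRF2 targets and redox genes, 8 rose and 9 fell (10 and 7 under 75th percentile scaling), with a median of -0.28 that was -0.47 without medium replicate 4. The mitochondrial superoxide dismutase Sod2 rose by 3.19 ± 0.21 and the cystine importer Slc7a11 by 4.72 ± 0.57. Gclc and Gclm, the subunits of the enzyme that starts glutathione synthesis from that cystine, fell by 2.03 ± 0.43 and 2.02 ± 0.37, and the glutathione peroxidase Gpx1 by 2.08 ± 0.39.

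Of 30 genes of glycolysis and glucose uptake, 6 rose and 8 fell (11 and 6 under 75th percentile scaling), shares near the 18.7% and 23.6% of all genes. Pfkfb3, which makes the activator of phosphofructokinase, was at 16.12, 16.15 and 15.71 after LPS and 10.34, 10.76, 10.54 and 12.13 in medium, a difference of 5.05 ± 0.38. Its relatives Pfkfb2 and Pfkfb4 fell by 3.76 ± 0.40 and 2.87 ± 0.21. The glucose transporters Slc2a6 and Slc2a1 rose by 3.26 ± 0.34 and 2.14 ± 0.31, hexokinase Hk2 by 1.73 ± 0.34, and Pdk2, a kinase that blocks pyruvate dehydrogenase, fell by 3.44 ± 0.25.

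Of 67 subunits of the respiratory chain and ATP synthase, 1 was called higher and 47 lower (median -0.63), but under 75th percentile scaling 7 were higher and 2 lower (median 0.04). Ndufb10 of complex I was at 13.72, 13.49 and 13.48 after LPS and 14.99, 15.10, 15.16 and 15.05 in medium (-1.51 ± 0.14). The tricarboxylic acid cycle had 3 of 29 genes higher and 15 lower (median -0.61), and 4 and 2 under 75th percentile scaling. Idh1, the cytosolic isocitrate dehydrogenase, was at 7.92, 7.91 and 7.61 after LPS and 10.45, 10.01, 10.69 and 9.95 in medium, a fall by 2.46 ± 0.29. In fatty acid oxidation 3 of 32 genes rose and 15 fell (median -0.75, and -0.53 under 75th percentile scaling). Acadm, a dehydrogenase of medium-chain fatty acids, fell by 2.36 ± 0.20, the carnitine transferase Cpt1a by 1.49 ± 0.24 and the lipid-sensing factor Pparg by 2.61 ± 0.33.

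More cholesterol genes fell than rose. In synthesis and uptake 4 of 34 genes rose and 13 fell (6 and 13 under 75th percentile scaling), and among 19 LXR targets none rose and 7 fell (2 and 6 under 75th percentile scaling). The gene that rose most was Ch25h, which makes the antiviral 25-hydroxycholesterol, at 15.18, 17.02 and 16.89 after LPS and 9.14, 10.18, 10.42 and 10.93 in medium. Dhcr7, of the last step of cholesterol synthesis, fell by 2.38 ± 0.37 and the exporter Abcg1 by 2.97 ± 0.74, whereas the exporter Abca1 varied between arrays and was not called (-0.55 ± 0.61).

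Most lysosomal genes fell, as did their regulator. Of 51 genes for lysosomal enzymes and TFEB-type factors, 5 rose and 34 fell (median -0.93), and 8 rose and 17 fell under 75th percentile scaling. Tfeb, the factor that drives lysosome genes, was at 6.16, 6.25 and 5.59 after LPS and 9.34, 9.41, 9.45 and 9.47 in medium, a fall by 3.41 ± 0.25 (adjusted p = 4.75e-09). Its relative Tfec rose by 2.51 ± 0.41. The acid lipase Lipa fell by 2.08 ± 0.24, Galc, which cuts galactolipids, by 2.76 ± 0.45 and the fucosidase Fuca1 by 1.85 ± 0.15. The protease activator Ctsc was an exception, with a rise of 2.23 ± 0.25.

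The mitosis list had the lowest median of the 48 lists. Of 63 genes of mitosis and chromosome segregation, 2 rose and 51 fell, with a median of -2.44 against -0.04 for all genes, and 41 of them fell by at least 4-fold. The counts were the same under 75th percentile scaling, and 46 fell without medium replicate 4. Ccnf, which encodes cyclin F, was at 7.54, 6.07 and 6.60 after LPS and 11.54, 10.99, 10.86 and 11.61 in medium, a fall by 4.52 ± 0.61 (adjusted p = 8.36e-06). Bub1b of the spindle checkpoint fell by 3.76 ± 0.55 and the phosphatase Cdc25b fell by 4.18 ± 0.60, and the kinase Aurkb, below background on all LPS arrays, was at least 4.19-fold lower. Pttg1, which encodes securin, rose by 2.14 ± 0.16, and Tpx2 was 1.27 ± 0.41 on the probe used and -0.03 on its other probe. The 38 mitosis genes that were at least 4-fold lower against the other 3 medium arrays were higher on medium replicate 4 than on those arrays, by a median of 0.48.

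In DNA replication 1 of 51 genes rose and 28 fell (median -1.09), and in DNA repair 2 of 52 rose and 37 fell (median -1.46). Under 75th percentile scaling 2 replication genes rose, and the other 3 counts were the same. Rrm2, the ribonucleotide reductase subunit of dividing cells, was at 10.49, 9.22 and 10.52 after LPS and 12.98, 12.33, 13.29 and 13.77 in medium. Clspn, which carries the replication checkpoint signal, fell by 4.84 ± 0.58, and the checkpoint kinase Chek2 was at 4.67, 3.97 and 3.63 after LPS and 9.15, 9.12, 9.17 and 9.26 in medium, with 1 of 3 LPS arrays above background. Xrcc3 and Brca2 of homologous recombination fell by 4.75 ± 0.38 and 3.82 ± 0.70. The clamp gene Pcna was not called (-0.62 ± 0.31). Against the group, thymidylate synthase Tyms rose by 2.86 ± 0.26 and the uracil glycosylase Ung, which removes uracil from DNA, by 2.23 ± 0.23.

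Of 32 regulators of the step into S phase, 6 were higher and 12 lower (7 and 11 under 75th percentile scaling). The share of risers, 18.8%, was that of all genes (18.7%), and the share of fallers was 37.5% against 23.6%. E2f2, which switches on replication genes, was at 7.07, 6.43 and 6.61 after LPS and 12.70, 12.08, 12.48 and 12.84 in medium, a fall by 5.82 ± 0.36. E2f8 fell by 1.99 ± 0.42, and E2f1 was not called (-1.04 ± 0.56). The inhibitor Cdkn1a, known as p21, rose by 3.41 ± 0.31 and the cyclin Ccnd2 by 5.38 ± 0.50, whereas the inhibitor Cdkn2c fell by 3.53 ± 0.44. The promoters of E2f2 (chr4:136172024-136172323), Chek2 (chr5:110839733-110840032) and Clspn (chr4:126556730-126557029), all on the plus strand of GRCm38.p6, are shown as falling genes with an E2F motif, TTTNGCGC or its reverse complement, in capitals.
E2f2: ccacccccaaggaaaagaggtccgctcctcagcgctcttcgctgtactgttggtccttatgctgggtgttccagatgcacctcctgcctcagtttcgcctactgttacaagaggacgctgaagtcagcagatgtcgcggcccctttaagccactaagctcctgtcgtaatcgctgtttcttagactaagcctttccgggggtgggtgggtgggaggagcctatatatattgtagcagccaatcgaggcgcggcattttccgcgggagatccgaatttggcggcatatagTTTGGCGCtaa
Chek2: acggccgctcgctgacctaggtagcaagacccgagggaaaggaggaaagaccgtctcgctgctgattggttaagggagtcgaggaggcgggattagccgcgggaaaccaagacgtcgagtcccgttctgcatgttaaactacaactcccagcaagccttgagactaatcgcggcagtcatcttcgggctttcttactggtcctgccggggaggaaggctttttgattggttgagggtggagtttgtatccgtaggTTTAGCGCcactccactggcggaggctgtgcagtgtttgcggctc
Clspn: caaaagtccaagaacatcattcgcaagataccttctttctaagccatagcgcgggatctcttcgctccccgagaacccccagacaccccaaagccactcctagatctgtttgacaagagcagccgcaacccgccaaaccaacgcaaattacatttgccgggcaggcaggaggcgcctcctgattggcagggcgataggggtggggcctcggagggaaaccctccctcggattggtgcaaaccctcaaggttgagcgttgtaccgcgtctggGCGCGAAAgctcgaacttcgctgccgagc
This motif was in 2.85% of promoters of genes at least 4-fold lower, 1.00% of those at least 4-fold higher and 1.99% of all. Promoters of genes called lower by under 4-fold held it in 3.00%, and the replication list in 24.5% of 49. Among 58 promoters of the mitosis list, 63.8% held the cell cycle homology core TTTGAA (14.1% of all promoters) and 74.1% a CCAAT box (37.7% of all). Over all genes at least 4-fold lower, TTTGAA was in 14.9% of promoters, against 14.8% of those at least 4-fold higher. The CCAAT box was in 41.4% and 33.2%.

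**Figure D4:**
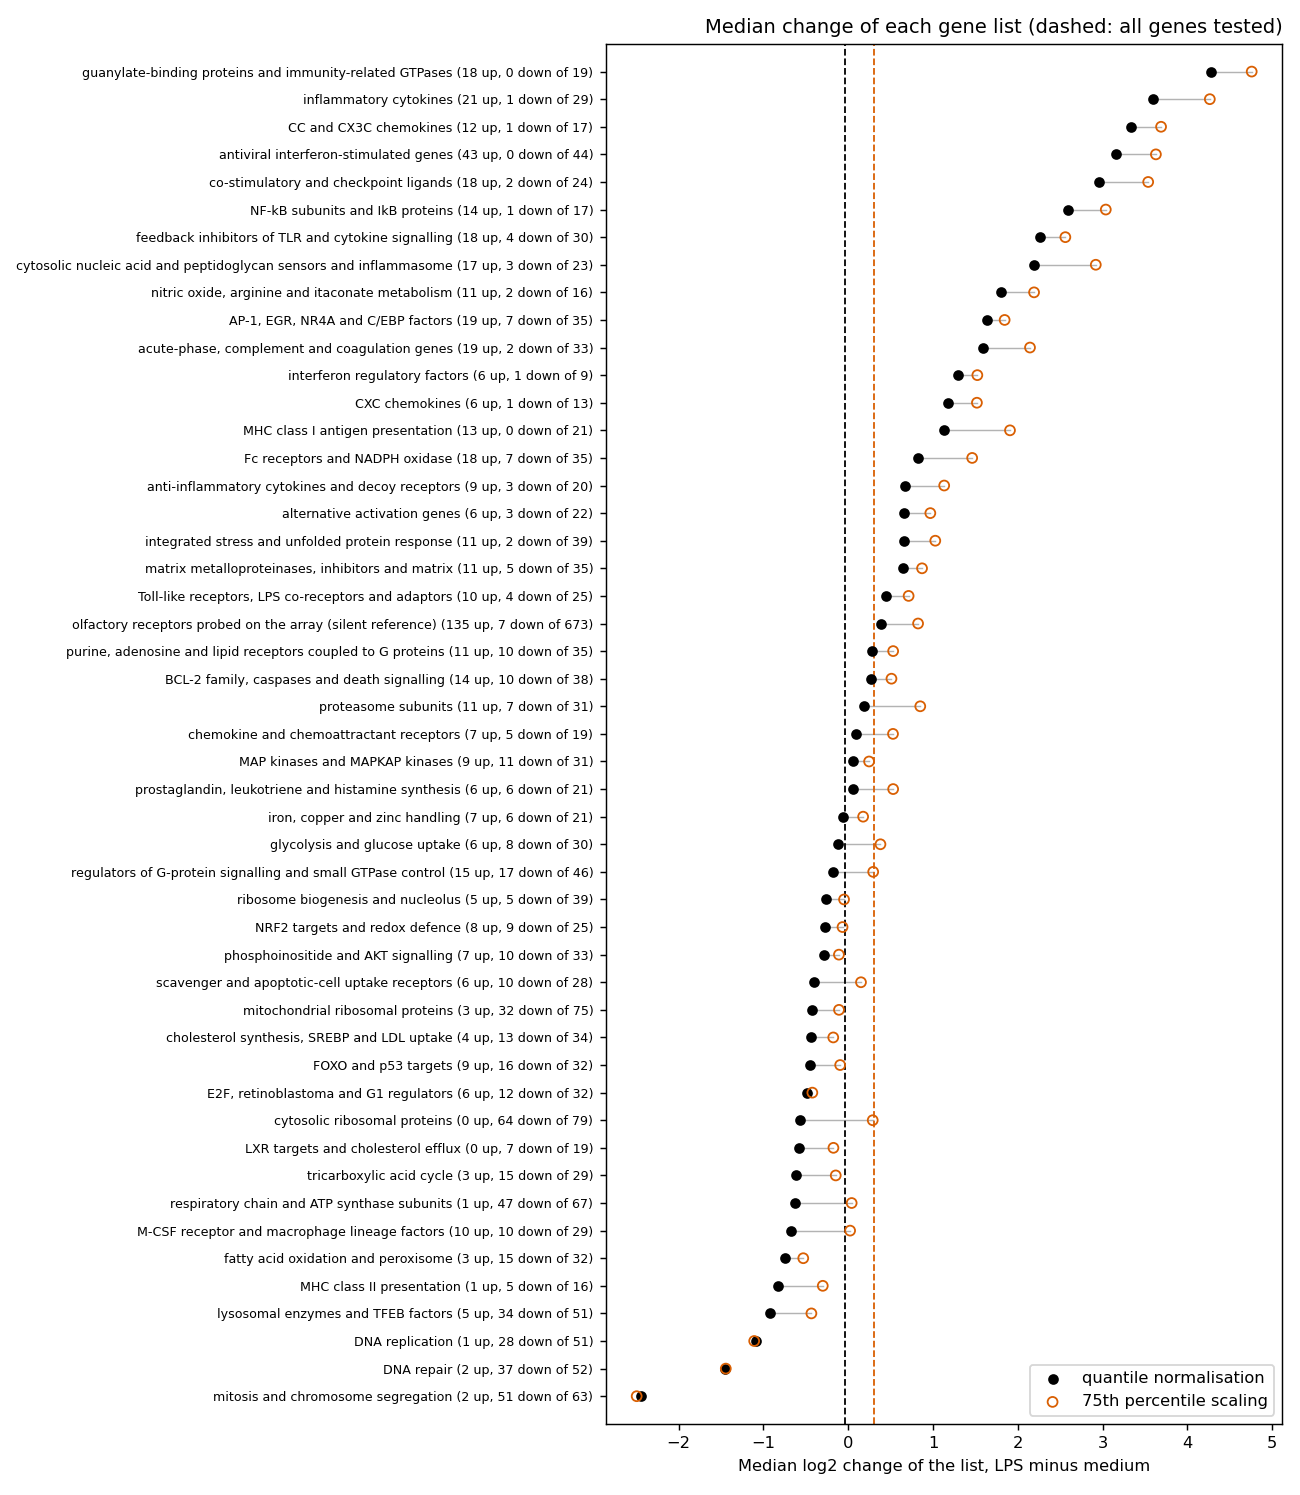
Median log2 change, LPS minus medium, of each gene list under quantile normalisation (black) and under 75th percentile scaling (open), with the number of members called up and down of those tested, and dashed lines at the median of all genes. Guanylate-binding proteins lie highest at 4.28 and mitosis genes lowest at -2.44. Cytosolic ribosomal proteins move from -0.57 to 0.29 and the respiratory chain from -0.63 to 0.04 between the scalings.

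Genes of stress and translation were mixed. Of 32 FOXO and p53 targets, 9 rose and 16 fell (9 and 13 under 75th percentile scaling, where the median moved from -0.45 to -0.10). Txnip, which lowers glucose uptake, fell by 3.06 ± 0.58 and the glucocorticoid-induced Tsc22d3 fell by 4.12 ± 0.26, while the stress genes Gadd45b and Ddit4 rose by 4.52 ± 0.33 and 2.44 ± 0.53. In the integrated stress and unfolded protein response 11 of 39 genes rose and 2 fell. Ppp1r15b, a subunit of the phosphatase that reverses the stress signal, was at 11.37, 11.67 and 11.19 after LPS and 7.88, 8.08, 7.86 and 8.09 in medium, and the mitochondrial folate enzyme Mthfd2 rose by 3.21 ± 0.54. The chaperone gene Dnajc3 fell by 0.96 ± 0.20, and Ddit3 was not called (0.55 ± 0.28).

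All called changes in 79 cytosolic ribosomal protein genes were falls under quantile normalisation, with 64 called and a list median of -0.57, but under 75th percentile scaling 14 rose and none fell (median 0.29). Relative to the median of all genes, the list stood at -0.53 under the first scaling and at -0.0093 under the second. Mitochondrial ribosomal proteins fell in 32 of 75 cases (median -0.42, and -0.11 under 75th percentile scaling), among them Mrpl41 by 1.94 ± 0.28. Proteasome subunits rose in 11 of 31 cases and fell in 7 (23 and 0 under 75th percentile scaling), among them Psma6 by 1.71 ± 0.18. Their share of risers was 35.5% against 18.7% of all genes, and that of fallers 22.6% against 23.6%.

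Genes that define the macrophage changed in both directions. Of 29 genes for the M-CSF receptor and lineage factors, 10 rose and 10 fell (median -0.68, and 0.02 under 75th percentile scaling). Csf1r, which encodes the M-CSF receptor, was at 17.16, 17.32 and 17.48 after LPS and 18.47, 18.50, 18.30 and 18.22 in medium, a fall by 1.05 ± 0.14. The lineage factor Fli1 fell by 3.27 ± 0.42 and Klf2, which restrains inflammation, by 2.40 ± 0.49, whereas Spi1, which encodes PU.1, rose by 1.38 ± 0.19. Gfi1, a repressor of myeloid genes, was at 11.39, 13.67 and 11.67 after LPS and 3.97, 2.63, 5.68 and 9.35 in medium, with 3 of 4 medium arrays above background and a difference of 6.84 ± 0.99 (8.15 without medium replicate 4). Alternative activation genes rose in 6 of 22 cases and fell in 3 (9 and 1 under 75th percentile scaling). These shares were 27.3% and 13.6%, against 18.7% and 23.6% of all genes. The members that rose included Ccl22 (6.47 ± 0.88) and Ccl17 (5.39 ± 0.72), chemokines for T cells, besides Il10, while Mrc1, the mannose receptor, was not called (-0.27 ± 0.81) and Stab1 fell by 1.91 ± 0.49.

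Uptake receptors were also divided. Of 28 scavenger and apoptotic-cell receptors, 6 rose and 10 fell (8 and 6 under 75th percentile scaling). The shares under quantile normalisation were 21.4% and 35.7%, against 18.7% and 23.6% of all genes. The scavenger receptors Msr1 and Olr1 rose by 3.01 ± 0.32 and 4.72 ± 0.87, the latter with 2 of 4 medium arrays above background. Cd300lf, a receptor for lipids of dying cells, fell by 4.32 ± 0.51 and the integrin Itgb5 by 2.69 ± 0.22. Cd36 was not called (-0.24 ± 0.40). Of 35 Fc receptors, adaptors and oxidase subunits, 18 rose and 7 fell (21 and 6 under 75th percentile scaling). The inhibitory receptor Fcgr2b rose by 4.43 ± 0.45, the activating Fcgr4 by 3.85 ± 0.45, the glycolipid receptor Clec4e by 4.21 ± 0.50 and the oxidase subunit Cybb by 1.78 ± 0.28. Trem2, a lipid receptor of tissue macrophages, was at 12.74, 15.89 and 15.75 after LPS and 17.17, 17.69, 17.42 and 17.48 in medium, a fall by 2.64 ± 0.48. Inpp5d, which encodes the phosphatase SHIP1, was at 9.52, 10.12 and 9.91 after LPS and 14.07, 14.92, 14.75 and 14.54 in medium, a fall by 4.72 ± 0.36.

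Receptors for purines and lipids rose in 11 of 35 genes and fell in 10 (11 and 9 under 75th percentile scaling). Risers made up 31.4% and fallers 28.6%, against 18.7% and 23.6% of all genes. Hcar2, the niacin receptor, rose by 6.62 ± 0.46, the fatty acid receptor Gpr84 by 5.15 ± 0.44 and the adenosine receptors Adora2a and Adora2b by 5.22 ± 0.43 and 5.05 ± 0.30. P2rx7, the ATP-gated channel that starts inflammasome activation, was at 8.50, 8.23 and 8.86 after LPS and 12.28, 12.88, 12.49 and 12.47 in medium, a fall by 3.99 ± 0.48. The lysophosphatidic acid receptor Lpar6 fell by 4.86 ± 0.23 and the proton-sensing Gpr65 by 3.68 ± 0.40. Among regulators of G proteins and small GTPases, 15 of 46 rose and 17 fell (20 and 13 under 75th percentile scaling). Rgs2, which shortens signals of Gq proteins, was at 10.94, 11.12 and 11.57 after LPS and 15.71, 16.25, 15.89 and 16.04 in medium, a fall by 4.76 ± 0.29, while Rasgrp1, an activator of RAS, rose by 6.16 ± 0.78 and its relative Rasgrp3 fell by 4.37 ± 0.53.

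Death and survival genes rose in 14 of 38 cases and fell in 10 (17 and 5 under 75th percentile scaling). Fallers made up 26.3% of the list, against 23.6% of all genes. The caspase-8 inhibitor Cflar rose by 5.34 ± 0.33, the TNF receptor adaptor Traf1 by 5.13 ± 0.39 and the death receptor Fas by 4.04 ± 0.31. Bmf, which triggers death on loss of anchorage, was at 5.82, 4.41 and 5.72 after LPS and 12.40, 11.96, 12.74 and 12.34 in medium. Its fall by 7.04 ± 0.45 (adjusted p = 1.04e-09) opposed the rise of the related Bcl2l11 by 2.67 ± 0.23. Casp9 of the mitochondrial death pathway fell by 1.91 ± 0.24. Of 35 genes of matrix proteases and matrix, 11 rose and 5 fell (14 and 3 under 75th percentile scaling). The collagenase Mmp13 was at 17.44, 17.36 and 16.99 after LPS and 10.48, 9.01, 10.39 and 13.64 in medium, and Mmp14 rose by 3.80 ± 0.30. Timp1, a protease inhibitor also made by fibroblasts, was at 15.37, 13.65 and 12.91 after LPS and 15.02, 9.35, 11.25 and 12.06 in medium and was not called, except without medium replicate 1. Itga6 fell by 2.55 ± 0.38.

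Kinases downstream of TLR4 moved both ways. Of 31 MAP kinases and MAPKAP kinases, 9 rose and 11 fell (11 and 9 under 75th percentile scaling). Map3k8, the kinase freed by NF-κB activation, rose by 3.72 ± 0.24, whereas Mapk14, which encodes p38α, was at 11.61, 10.84 and 11.06 after LPS and 14.07, 14.02, 14.04 and 13.83 in medium, a fall by 2.82 ± 0.34. The kinase Rps6ka1 fell by 3.58 ± 0.26. Of 33 phosphoinositide and AKT genes, 7 rose and 10 fell (8 and 8 under 75th percentile scaling), shares of 21.2% and 30.3% against 18.7% and 23.6% of all genes. The regulatory subunit Pik3r5 rose by 2.26 ± 0.25, while the kinase Akt1 fell by 1.38 ± 0.13.

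Families formed by the shared start of gene symbols gave a second view that did not use the lists, although the 2 views share many genes. Of 235 families with at least 10 tested genes, the highest shares of risers were seen in Gbp (9 of 10), Slfn (8 of 10), Ifi (11 of 16), Parp (8 of 12) and Ccl (11 of 17). The schlafens restrict viral translation, and PARP enzymes include antiviral ADP-ribosyl transferases. In the Parp family 4 genes fell. The highest shares of fallers were seen in Ndufb of complex I (8 of 10), Rpl (41 of 52), Anapc of the mitotic ubiquitin ligase (7 of 10), Cyb (8 of 12) and Atg of autophagy (11 of 17, with 4 higher). Under 75th percentile scaling, Ndufb and Anapc had 2 fallers each and Rpl none, with 4 Rpl genes higher, while Atg had 9 and Cyb 7.

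The LPS response of the other genotypes was set beside that of wt by the interaction of genotype and treatment. None of the 22330 genes was called different between MK2-/- and wt BMDM (0%, limma, 1683 at an unadjusted p below 0.05, 80 called with array weights), and 154 (0.690%) differed between MK2/3-/- and wt BMDM. The second count was 20 without LPS replicate 1 or medium replicate 1, 36 without medium replicate 2, 59 without medium replicate 3, 49 without medium replicate 4, 69 without LPS replicate 3 and 123 without LPS replicate 2. The arrays of each genotype lay on 1 slide of their own, so that slide and genotype cannot be told apart in this comparison, whereas the wt LPS and medium arrays shared a slide. The ages of the mice also differed between the genotypes. With age as a covariate, 3 genes were called for MK2-/- and 178 for MK2/3-/- BMDM. Side by side, the median change of the mitosis list was -2.44 in wt, -3.59 in MK2-/- and -3.29 in MK2/3-/- BMDM. In the same order, it was 3.60, 4.72 and 5.76 for the inflammatory cytokines and 3.16, 3.48 and 3.17 for the antiviral genes. The wt cytokine median was 3.88 without medium replicate 4. No member of these lists was called different between either genotype and wt.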

How the data were processed

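RNA of each culture was hybridised to a 1-colour Agilent mouse array. Per the labels, the authors scanned the arrays and made the deposited signal intensity of each spot with Agilent Feature Extraction, whose version is not given in the sources used here. The series' value table holds the authors' log2 values, quantile normalised and centred per probe, and served as an alternative. From the deposited intensities (gProcessedSignal), 3671 control spots were removed, outlier spots set missing, values quantile normalised and log2 transformed. For each gene the probe with the highest mean signal was kept among probes with an NCBI accession that were well above background on at least 3 arrays. Names came from RefSeq (GRCm38.p6), with 27509 of 29150 RefSeq probes matched, and 18339 of 22330 genes tested had a symbol. Of the genes tested, 69 had a missing value on at least 1 wt array, among them Chac1.

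limma 3.58.1 in R 4.3.3 fitted a mean for each of 6 groups on all 22 arrays. The contrast was LPS minus medium in wt BMDM, two-sided, with Benjamini-Hochberg adjustment and calls at an adjusted p below 0.05. The fit was tested on simulated data. The number of arrays limits the precision. A gene that no array of a group measured above background gets only a bound. There the dim group's mean was taken with each array's value raised, if lower, to the dimmest signal that still counted as well above background on that array, and the bright group's mean was set against it. Members and gene lists were chosen with earlier results of these data known. Genes named in the text come from the 20 largest rises and falls among called genes whose groups did not overlap, the key members fixed for each list, the 3 largest rises and falls per list, all members of lists of up to 10 genes, and genes whose call an alternative changed. Some genes that this rule names are not reported here. The alternatives were other scalings, filters, probe choices, tests, weights, blocks and the omission of each array. The microarray grid refers to another genome build, so no probe coordinates are given.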

Additional observations from a re-analysis of the deposited data

Results flagged for a closer look

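In groups of 4 arrays, the highest or lowest array was compared with the range of its group by Dixon's test at 95%, which flags about 1 in 20 groups by chance. Among the 236 genes named above, 8 stood out on a wt medium array, 5 of them on replicate 4, and over all genes 1357 of 22288 (6.09%) did, with 271 on replicate 4 and 326 to 385 on each of the others. On medium replicate 4, Gbp2 was at 13.38, Batf at 9.88, Socs1 at 9.68, Gbp6 at 8.28 and Steap4, below background there, at 2.52. On medium replicate 1, Hk2 was at 10.74 and Galc at 8.85, and on medium replicate 2 the iron exporter Slc40a1 was at 11.85. The median position of rising genes between medium and LPS was also apart on replicate 4, at 13.6%. Replicate 4 had been singled out beforehand for this rise, so its flags on rising genes are no independent support.

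The LPS response was called different between MK2/3-/- and wt BMDM in 5 of the named genes by the limma interaction. The response in MK2/3-/- minus that in wt was -2.59 for Cebpd, -2.09 for Mapk14, -1.91 for Mavs, -1.99 for Tlr2 and 1.82 for Rgs2. Genotype and slide cannot be told apart here. Of all 154 genes called in this comparison, 13 were called again without LPS replicate 1 and 18 without medium replicate 1. Under 75th percentile scaling it was 20. Whether these 5 genes were among them is not reported here.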

How the results depend on the processing

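Of the 216 named genes that were called, 179 kept their direction and call under all 23 other settings, and Cd80 reversed, to 1.84, on the probe with the highest induction. Counts of calls moved by over 1.5 times in few settings. All 55681 probes tested without a choice per gene gave 16187 calls, 7948 higher and 8239 lower (1661 and 2101 at least 4-fold), limma treat with a minimum change of 2-fold gave 2365, 1095 higher and 1270 lower, 75th percentile scaling gave 6370 higher, and normexp background correction gave 613 at least 4-fold lower. Leaving out each wt array in turn gave 7596 to 9326 calls, 3161 to 4157 higher and 4435 to 5169 lower, with 990 to 1145 and 1227 to 1512 at least 4-fold. The difference between MK2/3-/- and wt BMDM held 21 genes under 75th percentile scaling, 280 with a stricter filter, 84 over all probes and 1024 with array weights, and 20 to 123 without 1 array.

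List medians are given here minus the median of all genes. With the probe of highest induction, the value was 0.97 for anti-inflammatory cytokines, 2.18 for acute-phase genes, -0.11 for cholesterol, -0.21 for mitochondrial ribosomal proteins and -0.28 for M-CSF and lineage. After normexp correction, the value was 0.42 for CXC chemokines, 2.00 for feedback inhibitors, 1.02 for AP-1 and related factors, 0.99 for acute-phase genes, -0.28 for cholesterol, -1.76 for mitosis, -1.02 for DNA repair, 0.47 for alternative activation genes and 0.14 for olfactory receptors. With the stricter filter, the value was 2.50 for CXC chemokines and 4.30 for CC and CX3C chemokines. Under 75th percentile scaling, the value was 2.62 for cytosolic sensors, 1.61 for MHC class I, -0.45 for TCA cycle, -0.26 for respiratory chain, -0.47 for cholesterol, -1.41 for DNA replication, -0.72 for E2F regulators, -1.74 for DNA repair, -0.0093 for cytosolic ribosomal proteins, 0.55 for proteasome subunits, -0.28 for M-CSF and lineage, 1.16 for Fc receptors, -0.41 for AKT signalling and -0.052 for MAP kinases. In the authors' log2 table, the value was 2.33 for cytosolic sensors, -0.48 for TCA cycle and -0.42 for cytosolic ribosomal proteins. With array weights, the value was -0.45 for cholesterol and -0.48 for M-CSF and lineage. Without 1 wt array, the range was 3.52 to 4.48 for inflammatory cytokines, 0.50 to 0.78 for anti-inflammatory cytokines, 2.12 to 2.33 for cytosolic sensors, -0.93 to -0.21 for MHC class II, -0.52 to 0.097 for NRF2 targets, -0.59 to -0.46 for TCA cycle, -0.66 to -0.56 for respiratory chain, -0.41 to -0.29 for cholesterol, -0.56 to -0.44 for cytosolic ribosomal proteins, -0.65 to -0.42 for M-CSF and lineage and 0.56 to 0.94 for alternative activation genes. The NRF2 value was above 0 only without LPS replicate 2 among these omissions. The causes were not tested.

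The labels number the arrays. LPS and medium arrays of the same number deviated together with r of 0.363, 0.266 and -0.034 for numbers 1 to 3. For arrays with the same letter in their names, r was 0.363, 0.154 and 0.0912. Arrays of the same letter had mice of the same age, 12, 13 and 12 weeks, whereas number 3 joined 12 and 13 weeks. The labels state no pairing and the main fit used none, so a pairing by letter remains possible. With a replicate block by number or letter, 9953 and 10066 genes were called. With these blocks, 354 and 390 differed between MK2/3-/- and wt BMDM, against 154 without a block. LPS replicate 3 did not correlate best with its own number, and LPS replicates 2 and 3 did not correlate best with their own letter. Both correlated best with medium replicate 2, of another letter, with r of 0.266 and 0.098.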
